A study of Mus musculus with 6 samples.

Results

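Genes of water and sodium reabsorption along the renal tubule were followed in single cells of mouse kidneys. They comprised 4 aquaporins (Aqp1, Aqp2, Aqp3 and Aqp4), the vasopressin receptor Avpr2, the 3 subunits of the epithelial sodium channel (Scnn1a, Scnn1b and Scnn1g), the mineralocorticoid receptor Nr3c2 and the enzyme Hsd11b2. These 10 genes were taken by symbol from the 28208 genes listed for all 6 kidneys, and each was described by kidney and tubular segment. Segments were set by other marker genes, and none of the 10 genes took part in the clustering. There were 3 groups of 2 kidneys each. Naive kidneys came from untransplanted male C57BL/6 (B6) mice, wild type with the I-Ab MHC type, aged 10 to 12 weeks. Rejecting kidneys were BALB/c (I-Ad) kidneys aged 6 to 7 weeks, which replaced both native kidneys of male B6 recipients without further treatment and were retrieved 15 days later. Tolerized kidneys had the same strain, age and day, but their recipients had been infused with BALB/c splenocytes treated with the cross-linker ECDI, 7 days before and 1 day after transplantation.

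Water leaves the tubular fluid through aquaporins. Aqp1 provides the constitutive pathway of the proximal tubule and the thin descending limb. In principal cells of the collecting duct, vasopressin acts through Avpr2 and cyclic AMP to place Aqp2 in the apical membrane, and water then leaves through Aqp3 and Aqp4 on the basolateral side. Sodium enters the same cells through the epithelial sodium channel, which aldosterone increases by way of the mineralocorticoid receptor, while Hsd11b2 inactivates glucocorticoids that would otherwise occupy that receptor.

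The 6 libraries held 8532 to 13378 barcodes and 34874702 to 96803926 unique molecular identifiers (UMIs), and 5608 to 10483 cells per kidney were kept. Naive and transplanted libraries shared only 0 to 4 barcodes per pair, against 111 within the naive pair and 18 to 35 within pairs of transplanted kidneys, and their matrices listed different genes. Donor strain, age, transplantation and library processing therefore cannot be told apart in any comparison with naive kidneys. The tolerized and rejecting kidneys shared strain, age, day and gene list. Proximal tubule-like cells of all 6 kidneys expressed Y-linked genes, as their labels give males.

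The naive kidneys held 170 and 173 principal-like cells, the rejecting kidneys 34 and 44, and the tolerized kidneys 89 and 189, with all 10 of their marker genes detected in every kidney. Naive principal-like cells lay in 1 cluster and nearly all transplanted ones in another, which was also led by Lcn2, a gene of injured tubules, and Tmsb4x. Their median depth was 5589 and 5645 UMIs in naive kidneys and 11119 to 15753 in transplanted kidneys. Markers of other cells moved with the groups. The 7 T cell markers summed to 5.47 to 6.53 CPM (UMIs scaled to a common total) in naive, 29.2 to 58.0 in rejecting and 4.77 to 31.2 in tolerized principal-like cells, with Cd4 at 0 in all 6 kidneys. The 7 macrophage markers summed to 15.9 to 27.4, 73.8 to 176 and 45.3 to 73.9 CPM, and the 14 proximal tubule markers to 757 to 868, 23.1 to 51.0 and 66.3 to 213 CPM, respectively. Their part in the differences below was not tested.

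Across the nephron, the 10 genes had sharply unequal levels between segments, given here as CPM within a class and kidney, lowest to highest over the 6 kidneys. For connecting tubule-like cells the ranges cover the 4 transplanted kidneys, because the naive cluster of that name had no marker of its own among its leading genes. UMIs were not divided by gene length, so levels are compared between segments and kidneys and not between genes. Aqp2 (ENSMUSG00000023013) had 7802 to 14517 CPM in principal-like cells, 632 to 1266 in connecting tubule-like cells and 45.2 to 1424 in intercalated-like cells. In thick ascending limb-like, proximal tubule-like and distal convoluted tubule-like cells it had at most 25.7, 27.9 and 48.6 CPM, no more than the 48.9 CPM reached in T cell-like cells, a measure of free RNA. Aqp3 (ENSMUSG00000028435) had 503 to 2941 CPM in principal-like cells, and its ranges in intercalated-like (73.8 to 603) and connecting tubule-like cells (101 to 169) overlapped. Aqp4 (ENSMUSG00000024411) had 449 to 944 CPM in principal-like cells and at most 63.4 in intercalated-like and 14.9 in connecting tubule-like cells. Avpr2 (ENSMUSG00000031390) had 318 to 487 CPM in principal-like cells, 56.0 to 128 in connecting tubule-like cells and 7.14 to 68.5 in intercalated-like cells. In thick ascending limb-like cells, where vasopressin also acts, Avpr2 had 6.70 to 19.1 CPM, a range that overlapped the 0 to 15.3 of T cell-like cells.

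The sodium channel subunits were not spread alike. Scnn1b (ENSMUSG00000030873) had 434 to 650 CPM in principal-like and 415 to 560 in connecting tubule-like cells, and 13.9 to 34.3 in distal convoluted tubule-like cells. Scnn1g (ENSMUSG00000000216) had 178 to 505 and 186 to 358 CPM in the former classes and 6.21 to 13.02 in the latter. Both were thus lower in distal convoluted tubule-like cells than in principal-like cells in every kidney. Scnn1a (ENSMUSG00000030340), the subunit that can form a channel by itself, reached further upstream, with 226 to 538 CPM in principal-like, 211 to 240 in connecting tubule-like, 164 to 352 in intercalated-like and 154 to 273 in distal convoluted tubule-like cells, 4 ranges that overlapped. Thick ascending limb-like cells had 79.5 to 131 CPM of Scnn1a, below all 6 values of distal convoluted tubule-like cells, and T cell-like cells had at most 20.6.

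Hsd11b2 (ENSMUSG00000031891) had 2824 to 4575 CPM in principal-like, 1172 to 2784 in connecting tubule-like and 138 to 1184 in intercalated-like cells. Its 0 to 20.1 CPM in distal convoluted tubule-like cells were no higher than the 5.34 to 33.3 of T cell-like cells. The single kidney with no UMI there, the second rejecting one, allowed up to 2.33 CPM. A cluster of 75 naive cells with 4 markers each of distal convoluted tubule, connecting tubule and principal cells was left unnamed. Its cells are in none of these classes. Nr3c2 (ENSMUSG00000031618) was found in all 5 distal classes, with 48.7 to 79.3 CPM in principal-like, 44.8 to 119 in connecting tubule-like, 12.2 to 50.9 in intercalated-like, 12.4 to 27.6 in distal convoluted tubule-like and 10.6 to 29.2 in thick ascending limb-like cells. T cell-like cells had at most 1.23 CPM. Neighboring segments overlapped in this order. Aqp1 (ENSMUSG00000004655) was highest in thin limb-like cells, at 3157 to 7001 CPM, followed by endothelium-like cells at 33.5 to 545 and proximal tubule-like cells at 129 to 303, which overlapped. All other classes had at most 28.2 CPM.

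**Figure D1:**
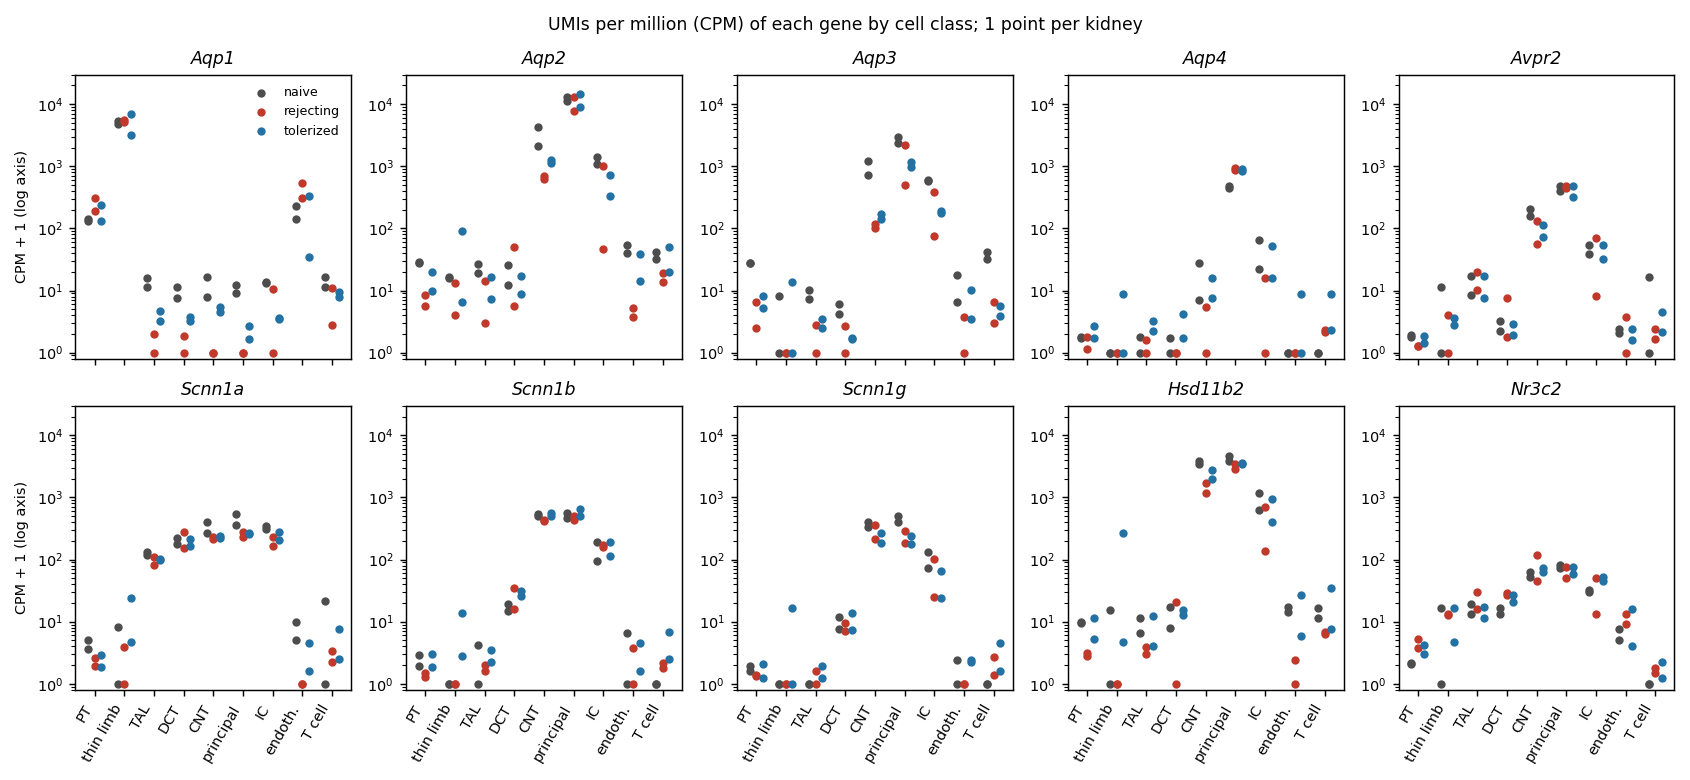
Level of each of the 10 genes in each cell class, as CPM on the vertical axis, with 1 point per kidney colored by group, naive connecting tubule-like cells included. Aqp2 lies between 7802 and 14517 CPM in principal cells and Aqp1 between 3157 and 7001 in the thin limb, whereas Scnn1a overlaps between principal cells and the distal convoluted tubule.

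Over the 48 sums of 1 class in 1 kidney, the genes whose log2(CPM + 1) followed Aqp2 most closely were Hsd11b2 (Pearson's r = 0.959), Aqp3 (0.958), Fxyd4 (0.951), Mcoln3 (0.9504) and A930017K11Rik (0.946). Those that followed Scnn1g were Scnn1b (0.978), Ptges (0.957), A930017K11Rik (0.953), Hsd11b2 (0.946) and Kcne1 (0.940). Sums of 1 kidney share a library, and Fxyd4, Ptges and Kcne1 were among the markers that named the principal-like class.

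The start of the Aqp2 gene was set beside those of Aqp3, Scnn1b and Scnn1g, which principal-like cells also express, to show which letters of the pathways' factors lie there. The 250 bases before each start are from RefSeq on GRCm38.p6 and are read along the gene's own strand, at chr15:99578806-99579055 on the plus strand for Aqp2, chr4:41098184-41098433 on the minus strand for Aqp3, chr7:121864788-121865037 on the plus strand for Scnn1b, and chr7:121734229-121734478 on the plus strand for Scnn1g. Capitals mark matches to the core of the cyclic AMP response element (TGACG or CGTCA), the GATA letters (GATAA or TTATC) and the steroid receptor hexamer (TGTTCT or AGAACA).
Aqp2: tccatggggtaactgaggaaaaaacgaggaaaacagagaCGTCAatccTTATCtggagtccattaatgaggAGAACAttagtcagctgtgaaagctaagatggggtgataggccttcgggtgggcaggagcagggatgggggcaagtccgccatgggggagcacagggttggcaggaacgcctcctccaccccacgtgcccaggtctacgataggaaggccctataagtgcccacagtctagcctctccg
Aqp3: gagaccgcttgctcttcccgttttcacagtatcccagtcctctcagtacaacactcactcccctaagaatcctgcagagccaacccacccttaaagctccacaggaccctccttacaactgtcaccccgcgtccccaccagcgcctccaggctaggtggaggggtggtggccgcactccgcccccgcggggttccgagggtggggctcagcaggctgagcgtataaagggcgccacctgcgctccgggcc
Scnn1b: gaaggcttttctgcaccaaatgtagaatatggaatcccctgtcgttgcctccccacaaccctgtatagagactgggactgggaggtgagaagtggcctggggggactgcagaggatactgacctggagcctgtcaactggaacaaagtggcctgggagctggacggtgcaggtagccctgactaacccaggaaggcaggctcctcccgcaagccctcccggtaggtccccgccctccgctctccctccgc
Scnn1g: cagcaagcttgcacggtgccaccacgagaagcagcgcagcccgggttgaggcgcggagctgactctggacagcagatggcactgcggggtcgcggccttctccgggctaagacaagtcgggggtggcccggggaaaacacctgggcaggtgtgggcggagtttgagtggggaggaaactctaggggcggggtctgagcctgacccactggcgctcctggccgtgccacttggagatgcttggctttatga

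The Aqp2 stretch held 1 match to each, all on the opposite strand: CGTCA 211 bases, TTATC 202 bases and AGAACA 179 bases before the start. They did not overlap each other. None of the 3 motifs was matched in the stretches of Aqp3, Scnn1b or Scnn1g. The stretch of Avpr2, not printed, held 2 matches to the hexamer and 1 to the GATA letters. Among 27025 promoters of the same length, 17.9% held the cyclic AMP letters, 23.0% the GATA letters and 16.2% the hexamer, so a single match is common. Of the 10 genes, 7 were in the promoter table, and Aqp4, Scnn1a and Hsd11b2 were not.

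In principal-like cells, none of the 9 genes passed the test between tolerized and rejecting kidneys (0 of 9 with edgeR and with DESeq2), while Aqp4 was higher and Scnn1g lower in both kinds of transplant than in naive kidneys. Scnn1a was lower in rejecting than in naive kidneys. Values below are CPM of the summed principal-like cells after TMM scaling, naive 1 and 2, rejecting 1 and 2, and tolerized 1 and 2 in turn. Fold changes, standard errors (SE) and adjusted p are from edgeR's quasi-likelihood test over all 9364 genes tested in these cells, with n = 2 kidneys per group, so that a p measures the spread between these kidneys.

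Aqp2, the apical water channel, had 11316 and 13284 CPM (naive), 7842 and 12890 CPM (rejecting) and 14639 and 9759 CPM (tolerized). The 3 groups overlapped. Its log2 fold change was 0.23 between tolerized and rejecting (SE 0.296, adjusted p = 0.968), -0.25 between rejecting and naive (SE 0.296, adjusted p = 0.621), and -0.01 between tolerized and naive kidneys (SE 0.296, adjusted p = 0.986). Avpr2, its upstream receptor, also overlapped, with 388 and 482 CPM (naive), 489 and 427 CPM (rejecting) and 484 and 344 CPM (tolerized). The log2 fold changes of Avpr2 were -0.15, 0.07 and -0.07 in the same order (SE 0.237, 0.238 and 0.233).

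Aqp4, a basolateral water channel, had 444 and 478 CPM (naive), 867 and 919 CPM (rejecting) and 926 and 907 CPM (tolerized). Every transplanted kidney was above both naive kidneys, and the rejecting and tolerized values lay close together. The log2 fold change from naive was 0.95 in rejecting (SE 0.212, adjusted p = 0.00691) and 0.99 in tolerized kidneys (SE 0.210, adjusted p = 0.0052), and that between tolerized and rejecting kidneys was 0.04 (SE 0.209, adjusted p = 0.994). Aqp4 passed in 9 of 9 alternatives that kept all kidneys, in both comparisons with naive. Without naive kidney 1 the changes were 0.90 and 0.94 (adjusted p = 0.0895 and 0.0837), and without naive kidney 2 they were 1.01 and 1.05 (adjusted p = 0.0657 and 0.0630).

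Aqp3, the other basolateral channel, had rejecting kidneys that stood far apart. It had 2315 and 2974 CPM (naive), 506 and 2167 CPM (rejecting) and 1181 and 1055 CPM (tolerized). All transplanted kidneys were below both naive kidneys, but the 2 rejecting kidneys stood on either side of the tolerized ones. The log2 fold change was -0.98 in rejecting (SE 0.439, adjusted p = 0.145) and -1.24 in tolerized kidneys against naive (SE 0.439, adjusted p = 0.0680), and -0.27 between tolerized and rejecting kidneys (SE 0.435, adjusted p = 0.978). Without the filter on low counts both differences from naive kidneys passed (-0.998 and -1.21, adjusted p = 0.000537 and 1.03e-05). Without rejecting kidney 2 the difference between rejecting and naive kidneys was -2.39 (adjusted p = 0.000544). The difference between tolerized and naive kidneys passed when rejecting kidney 1 (adjusted p = 0.00252) or 2 (adjusted p = 0.00282) was left out of the fit, in which all kidneys share 1 estimate of the spread.

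Scnn1g, the gamma subunit, had 395 and 511 CPM (naive), 184 and 279 CPM (rejecting) and 179 and 254 CPM (tolerized). The naive values were above all 4 transplanted values, and rejecting and tolerized kidneys overlapped. The log2 fold change from naive was -0.96 in rejecting (SE 0.263, adjusted p = 0.0231) and -1.06 in tolerized kidneys (SE 0.254, adjusted p = 0.0108), and -0.10 between tolerized and rejecting kidneys (SE 0.263, adjusted p = 0.981). The call between rejecting and naive kidneys was lost without naive kidney 1 (-1.13, adjusted p = 0.0523), naive kidney 2 (-0.76, adjusted p = 0.187) or rejecting kidney 1 (-0.70, adjusted p = 0.151), and that between tolerized and naive kidneys without naive kidney 2 (-0.86, adjusted p = 0.140) or tolerized kidney 1 (-0.84, adjusted p = 0.0844).

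Scnn1a, the alpha subunit, had 357 and 544 CPM (naive), 277 and 220 CPM (rejecting) and 257 and 289 CPM (tolerized), again with both naive kidneys above the rest. It was lower in rejecting than in naive kidneys by a log2 fold change of -0.86 (SE 0.250, adjusted p = 0.0296). The change between tolerized and naive kidneys was -0.72 (SE 0.239, adjusted p = 0.0534), and that between tolerized and rejecting kidneys was 0.14 (SE 0.248, adjusted p = 0.980). Between rejecting and naive kidneys, Scnn1a did not pass without naive kidney 2 (-0.53, adjusted p = 0.304), rejecting kidney 1 (-1.03, adjusted p = 0.0501) or rejecting kidney 2 (-0.70, adjusted p = 0.189).

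Scnn1b, the beta subunit, had 465 and 574 CPM (naive), 499 and 422 CPM (rejecting) and 656 and 536 CPM (tolerized), so the groups overlapped. Its log2 fold changes were 0.37 between tolerized and rejecting (SE 0.226, adjusted p = 0.929), -0.18 between rejecting and naive (SE 0.228, adjusted p = 0.648), and 0.20 between tolerized and naive kidneys (SE 0.222, adjusted p = 0.590). In the same cells, the subunits therefore had unlike values against naive kidneys, although the difference between subunits was not itself tested.

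Hsd11b2 had 3880 and 4627 CPM (naive), 2839 and 3327 CPM (rejecting) and 3442 and 3901 CPM (tolerized). Rejecting kidneys had the lowest values, below both other groups, but no difference passed. The log2 fold change was -0.46 between rejecting and naive (SE 0.235, adjusted p = 0.198), 0.25 between tolerized and rejecting (SE 0.234, adjusted p = 0.947), and -0.21 between tolerized and naive kidneys (SE 0.234, adjusted p = 0.580). Nr3c2 overlapped in all groups, with 72.0 and 80.2 CPM (naive), 48.9 and 73.4 CPM (rejecting) and 57.2 and 79.5 CPM (tolerized). The log2 fold changes of Nr3c2 were 0.14, -0.28 and -0.14 for tolerized against rejecting, rejecting against naive, and tolerized against naive (SE 0.269, 0.277 and 0.240), with 21 to 216 UMIs per kidney.

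**Figure D2:**
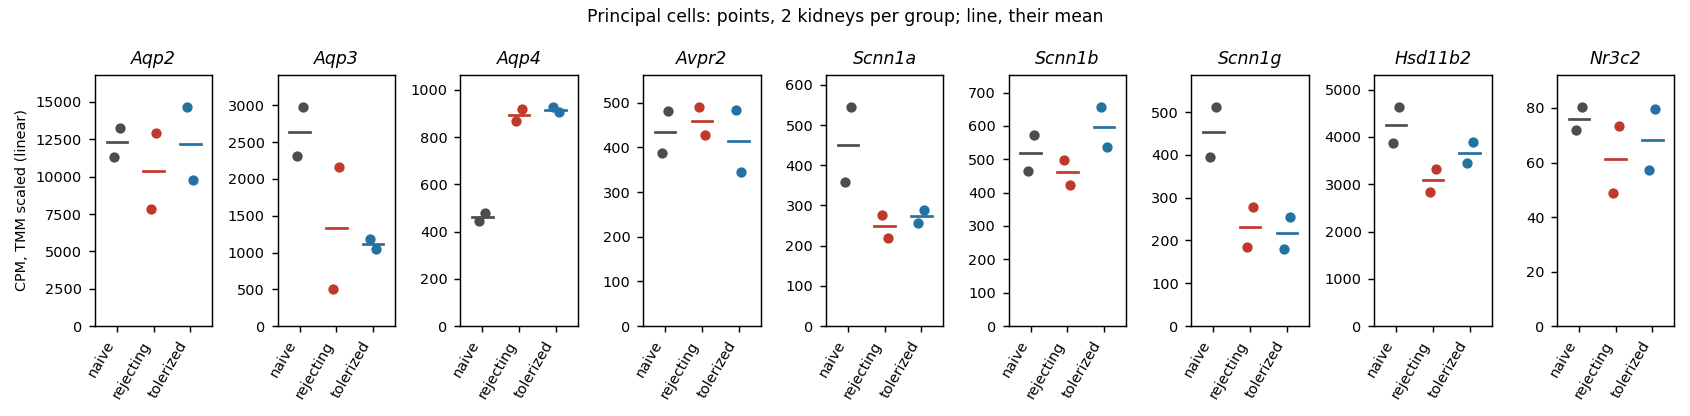
Level of 9 genes in principal cells, with CPM after TMM scaling on a linear vertical axis, 1 panel per gene, points for the 2 kidneys of each group and a line at their mean. The 4 transplanted kidneys lie above the naive kidneys for Aqp4 (867 to 926 against 444 and 478 CPM) and below them for Scnn1a and Scnn1g.

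Of the 9 genes in principal-like cells, 0 passed between tolerized and rejecting kidneys, where 0.032% of all genes tested passed. Between rejecting and naive kidneys 3 passed, 1 higher and 2 lower, where 16.3% of all genes passed, and between tolerized and naive kidneys 2 passed, 1 higher and 1 lower, against 16.2%. The naive kidneys are shared by both latter comparisons. The median log2 fold change of the 9 genes was 0.14, -0.28 and -0.14 in the 3 comparisons, beside -0.00, -0.01 and 0.00 over all genes. All 21 pairs of gene and segment examined between tolerized and rejecting kidneys were above the filter on low counts, and of these 0 passed with edgeR and 0 with DESeq2. In edgeR 2 pairs had an unadjusted p under 0.05. Both were in connecting tubule-like cells, where 563 of all 8283 genes tested had such a p.

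**Figure D3:**
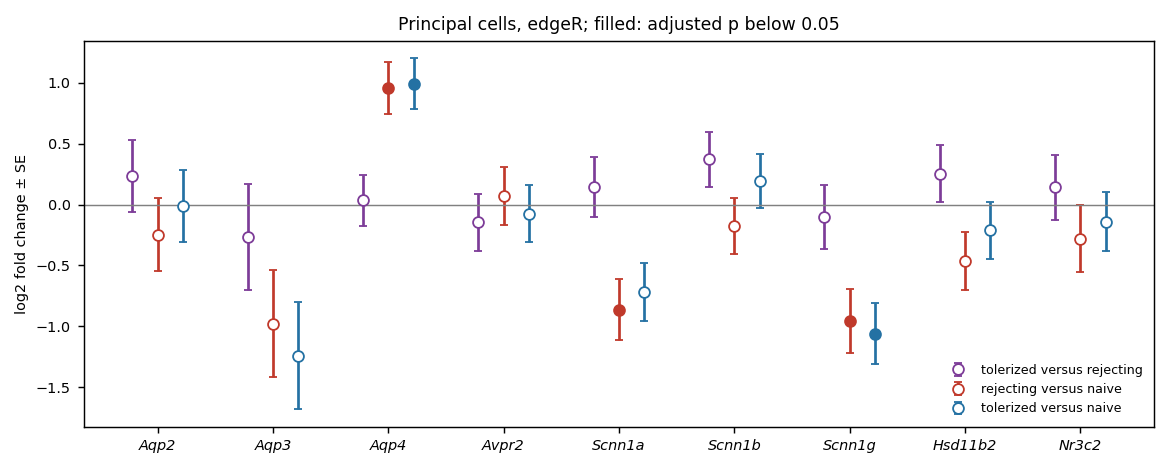
Log2 fold change of 9 genes in principal cells on the vertical axis, with bars of 1 SE, for tolerized against rejecting, rejecting against naive, and tolerized against naive kidneys; filled points have an adjusted p below 0.05 in edgeR. Aqp4 stands at 0.95 and 0.99 and Scnn1g at -0.96 and -1.06 against naive kidneys, and every change between tolerized and rejecting kidneys has an open point.

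The connecting tubule, just upstream of the collecting duct, holds the same channel and enzyme. Connecting tubule-like cells were compared between transplants only, because the naive cluster of that name had a principal cell marker and no marker of its own among its leading genes. Rejecting kidneys held 10 and 27 of them, and tolerized kidneys 46 and 160. Aqp2 had 586 and 744 CPM (rejecting) against 1102 and 1423 CPM (tolerized), a log2 fold change of 0.91 (SE 0.340, adjusted p = 0.551). Hsd11b2 had 1583 and 1231 CPM (rejecting) against 1967 and 3129 CPM (tolerized), a log2 fold change of 0.87 (SE 0.325, adjusted p = 0.551). For both genes the tolerized kidneys were above the rejecting ones, yet neither passed across all 8283 genes tested. In the 10 cells of rejecting kidney 1, a single cell held 29.7% of the Aqp2 and 24.9% of the Hsd11b2 UMIs. Without tolerized kidney 1 the change of Hsd11b2 was 1.20 and passed (adjusted p = 0.0444).

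The channel subunits and Nr3c2 in connecting tubule-like cells differed by less. Scnn1a had 210 and 221 CPM (rejecting) against 216 and 270 CPM (tolerized) (log2 fold change 0.17, SE 0.303). Scnn1b had 384 and 454 against 549 and 557 CPM (0.38, SE 0.282), Scnn1g 201 and 377 against 182 and 299.5 CPM (-0.34, SE 0.314), and Nr3c2 110 and 47.1 against 61.8 and 80.4 CPM (0.18, SE 0.366). Scnn1b alone of these 4 did not overlap, and the adjusted p of the 4 genes ran from 0.857 to 0.964 with edgeR. In total 0 of 6 genes passed here, where 0.0966% of all genes did. The T cell markers summed to 17.9 to 128 CPM in rejecting and 18.0 to 47.5 in tolerized kidneys in these cells, and the macrophage markers to 29.1 to 267 and 23.1 to 50.8 CPM, and their part was not tested.

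In distal convoluted tubule-like cells, the thiazide-sensitive segment, Scnn1a had 194 and 237 CPM (naive), 253 and 146 CPM (rejecting) and 197 and 178 CPM (tolerized). The groups overlapped, with log2 fold changes of -0.09 between tolerized and rejecting, -0.11 between rejecting and naive, and -0.20 between tolerized and naive kidneys (SE 0.236, 0.239 and 0.234). Nr3c2 had 17.7 and 13.4 CPM (naive), 25.6 and 24.2 CPM (rejecting) and 18.5 and 27.2 CPM (tolerized). All transplanted kidneys were above the naive ones, and the change between tolerized and rejecting kidneys was -0.11 (SE 0.270). The log2 fold changes of 0.64 in rejecting (SE 0.306, adjusted p = 0.161) and 0.53 in tolerized kidneys (SE 0.277, adjusted p = 0.224) did not pass. Apart from 2 naive cells, naive and transplanted cells of this class lay in different clusters. The stress and interferon genes Cxcl10, Lcn2 and Isg15 were among the leading genes of 1 cluster from transplanted kidneys, and the stress genes Nr4a1 and Hspa1a among those of 1 naive cluster. Of the 3 genes examined in this segment, 0 passed in any comparison, where 0.0944% of all genes passed between tolerized and rejecting, 21.1% between rejecting and naive, and 15.4% between tolerized and naive kidneys. Of Avpr2 and Nr3c2 in thick ascending limb-like cells, 0 passed, where 0.374%, 15.8% and 12.2% of all genes did. Avpr2 ranged from 7.02 to 17.7 CPM and Nr3c2 from 10.3 to 27.1 CPM in these cells, and both overlapped in all groups.

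Whether the segments of 1 kidney responded differently was tested with limma on the difference in log2 CPM between principal-like cells and another class. Of 21 such differences, 0 passed. Between tolerized and rejecting kidneys, the effect in principal-like cells minus that in connecting tubule-like cells was -0.67 for Aqp2 (SE 0.468, adjusted p = 0.733) and -0.58 for Hsd11b2 (SE 0.362, adjusted p = 0.721), in a comparison where 0.0% of all genes passed. Without rejecting kidney 2, that comparison rested on rejecting kidney 1 alone, with 10 connecting tubule-like cells, so calls of that fit are not read here. Against distal convoluted tubule-like cells, the effect of rejecting against naive kidneys differed by -0.99 for Nr3c2 (SE 0.332, adjusted p = 0.282) and by -0.67 for Scnn1a (SE 0.297, adjusted p = 0.403), where 0.218% of all genes passed. The other tests had backgrounds of 0.0459% between tolerized and naive and 0.0% between tolerized and rejecting kidneys against distal convoluted tubule-like cells, and of 0.201%, 0.0709% and 0.0% against thick ascending limb-like cells for rejecting against naive, tolerized against naive and tolerized against rejecting kidneys.

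Aqp1 in proximal tubule-like cells, the most numerous tubular class with 1117 to 4828 cells per kidney, had 169 and 150 CPM (naive), 262 and 163 CPM (rejecting) and 217 and 140 CPM (tolerized). All 3 groups overlapped, and naive and transplanted cells lay in different clusters, apart from 3 cells and 1 cluster of 294 cells that held both. The log2 fold change was -0.26 between tolerized and rejecting (SE 0.271, adjusted p = 0.823), 0.42 between rejecting and naive (SE 0.272, adjusted p = 0.244), and 0.16 between tolerized and naive kidneys (SE 0.271, adjusted p = 0.670), where 0.0%, 41.9% and 32.3% of the 12632 genes tested passed. With at most 20% mitochondrial UMIs per cell, the change between rejecting and naive kidneys was 0.73 and passed (adjusted p = 0.0306). T cell markers summed to 0.621 to 0.855 CPM in naive, 35.1 to 125 in rejecting and 12.3 to 14.0 in tolerized proximal tubule-like cells, and their part was not tested. In thin limb-like cells, of which each kidney held 18 to 31, Aqp1 had 5491 and 5256 CPM (naive), 6433 and 5295 CPM (rejecting) and 7781 and 3635 CPM (tolerized), and the tolerized values spanned all others.

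Each cell was next thinned to 1000 UMIs, so that shares of cells with a UMI do not follow depth. Aqp4 was then detected in 25.9% and 24.9% (naive), 44.1% and 56.8% (rejecting) and 43.2% and 41.4% (tolerized) of principal-like cells. All 4 transplanted kidneys were above the naive ones, although the exact binomial 95% interval of rejecting kidney 1 (27.2 to 62.1) reached into that of naive kidney 1 (19.5 to 33.1). Unthinned shares were 51.2% and 52.0%, 76.5% and 90.9%, and 84.3% and 82.0%. In T cell-like cells, which should lack these genes, the thinned share was at most 1.07% for Aqp4, 0.259% for Scnn1g and 2.44% for Scnn1a, at a median depth of 1301 to 4780 UMIs per cell before thinning. Scnn1g was detected in 32.4% and 37.6% of naive, 17.6% and 22.7% of rejecting, and 17.0% and 24.2% of tolerized principal-like cells. Scnn1a was detected in 32.9% and 39.9%, 26.5% and 18.2%, and 17.0% and 23.1%, respectively. For both subunits the naive kidneys were above all others. At 2000 UMIs per cell, Aqp4 was still higher in all transplanted kidneys (58.8% to 75.0%) than in naive kidneys (31.5% and 34.1%), and both subunits were still lower in tolerized kidneys. Rejecting kidneys were then no longer separate from naive ones, since Scnn1g reached 50% in naive kidney 1 and in rejecting kidney 2, and Scnn1a 44.5% in naive kidney 1 and 54.5% in rejecting kidney 1.

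Aqp3 was detected at 1000 UMIs in 91.2% and 86.7% of naive, 29.4% and 77.3% of rejecting, and 55.7% and 51.6% of tolerized principal-like cells, so that rejecting kidney 1 had the lowest share by this measure as by level. Aqp2 was found in 88.2% to 100% and Hsd11b2 in 82.4% to 98.3% of cells in every kidney. Scnn1b, Avpr2 and Nr3c2 ranged over 31.8% to 44.1%, 24.7% to 40.9% and 2.3% to 14.7%, and their naive values lay within the range of the transplanted kidneys. UMIs of no subunit of the sodium channel were found in 28.8% and 23.1% of naive, 41.2% and 38.6% of rejecting, and 46.6% and 43.0% of tolerized principal-like cells. UMIs of all 3 subunits were found in 7.65% and 7.51%, 2.94% and 2.27%, and 1.14% and 3.76%, respectively. At 2000 UMIs per cell, no subunit was found in 12.8% and 7.74%, 9.09% and 15.9%, and 14.1% and 27.5%. Rejecting kidney 1 then lay between the naive kidneys. All 3 subunits were found in 15.9% and 27.4%, 9.09% and 11.4%, and 11.8% and 5.62% at that depth, still highest in naive kidneys. Cells of 1 kidney are not replicates, so these shares carry no test.

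**Figure D4:**
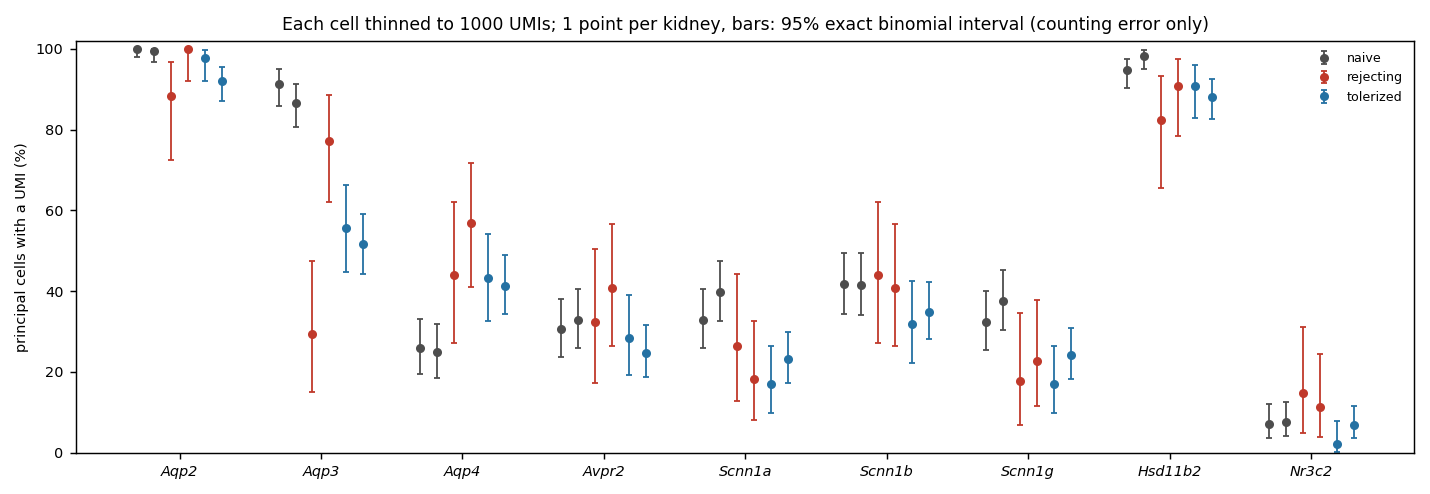
Share of principal cells with at least 1 UMI of each gene in percent, after thinning every cell to 1000 UMIs, with 1 point per kidney and bars of the exact binomial 95% interval, which covers counting error only. Aqp4 lies at 24.9% and 25.9% in naive and at 41.4% to 56.8% in transplanted kidneys, and Scnn1g at 32.4% and 37.6% against 17.0% to 24.2%.

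Other genes of the same pathways were examined in principal-like cells by list. Of 17 genes of the aldosterone response and of sodium channel regulation, 15 were tested. Between tolerized and rejecting kidneys 0 passed, between rejecting and naive kidneys 1 was higher and 2 were lower, and between tolerized and naive kidneys 2 were lower, where 0.032%, 16.3% and 16.2% of all genes passed. The median log2 fold change of the list was 0.06, -0.24 and -0.10 in turn, beside -0.00, -0.01 and 0.00 over all genes. Usp2, a deubiquitylating enzyme induced by aldosterone, had 74.8 and 81.2 CPM (naive), 11.7 and 18.0 CPM (rejecting) and 16.1 and 29.1 CPM (tolerized). It fell by 2.33 on the log2 scale in rejecting (SE 0.372, adjusted p = 0.000643) and by 1.73 in tolerized kidneys (SE 0.270, adjusted p = 0.000573) and passed in 14 of 14 alternatives in both comparisons. Ndrg2, another early aldosterone target, had 55.4 and 52.6 CPM (naive), 30.3 and 12.0 CPM (rejecting) and 25.1 and 23.6 CPM (tolerized), with log2 fold changes of -1.46 (SE 0.363, adjusted p = 0.0129) and -1.15 (SE 0.274, adjusted p = 0.0105) from naive. It passed in 9 and 10 of 14 alternatives. The call in rejecting kidneys was lost without naive kidney 1 or 2 (-1.42 and -1.49) or rejecting kidney 2 (-0.83). That in tolerized kidneys was lost without naive kidney 1 or 2 (-1.11 and -1.19) or tolerized kidney 2 (-1.10). DESeq2 gave neither call (adjusted p = 0.0551 and 0.0795). With at most 20% mitochondrial UMIs the call in rejecting kidneys was lost in edgeR (adjusted p = 0.0526).

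Wnk1, a kinase upstream of sodium transport, had 73.0 and 83.0 CPM (naive), 147 and 123 CPM (rejecting) and 114 and 93.5 CPM (tolerized) in principal-like cells, and was higher in rejecting than naive kidneys by 0.78 (SE 0.230, adjusted p = 0.0330). It passed in 6 of 14 alternatives and in none that left out a naive or rejecting kidney (0.66 to 0.91). With all kidneys kept, its call was lost with DESeq2 (adjusted p = 0.104), doublets kept, at most 20% mitochondrial UMIs and resolution 0.8. The kinase gene Sgk1, induced by aldosterone and by glucocorticoids, varied more within groups than between them, with 57.3 and 347 CPM (naive), 37.3 and 289 CPM (rejecting) and 41.8 and 335.5 CPM (tolerized). Its log2 fold changes were 0.17, -0.24 and -0.07 for tolerized against rejecting, rejecting against naive, and tolerized against naive (SE 0.843, 0.859 and 0.809). With the replicate number as a block they were 0.18, -0.39 and -0.21 (SE 0.244, 0.249 and 0.226) and did not pass. Tsc22d3, which encodes the glucocorticoid-induced leucine zipper protein, had 38.8 and 44.3, 39.6 and 21.0, and 13.5 and 31.3 CPM and changes of -0.29, -0.53 and -0.81 in that order of comparisons (SE 0.426, 0.422 and 0.346), none of which passed, although the last was -1.61 without tolerized kidney 2 (adjusted p = 0.0153). Nedd4l, a ubiquitin ligase that removes the channel from the membrane, had 133 and 110, 81.6 and 95.8, and 136 and 126 CPM. Both tolerized kidneys were above both rejecting kidneys, but the change of 0.55 did not pass (SE 0.223, adjusted p = 0.802).

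Of 13 genes of vasopressin and cyclic AMP signaling, 10 were tested in principal-like cells. None passed between tolerized and rejecting kidneys (0 of 10 with edgeR), 2 were lower in rejecting than in naive kidneys, and 3 were lower in tolerized than in naive kidneys, with list medians of 0.08, -0.50 and -0.31. The shares and medians over all genes were those given for the aldosterone list. Pde4d, a phosphodiesterase that degrades cyclic AMP, had 109 and 69.2 CPM (naive), 25.6 and 31.4 CPM (rejecting) and 40.5 and 27.99 CPM (tolerized). It fell by 1.61 on the log2 scale in rejecting (SE 0.334, adjusted p = 0.00433) and by 1.41 in tolerized kidneys (SE 0.268, adjusted p = 0.00254). Without naive kidney 1 these changes were -1.25 (adjusted p = 0.0557) and -1.04 (adjusted p = 0.0695). Ptger4, a prostaglandin E2 receptor coupled to cyclic AMP, had 25.9 and 18.4 CPM (naive), 4.66 and 5.99 CPM (rejecting) and 3.21 and 6.63 CPM (tolerized), from 2 to 28 UMIs per kidney. It fell by 2.00 (SE 0.582, adjusted p = 0.0307) and by 2.05 (SE 0.427, adjusted p = 0.00451). Its call in rejecting kidneys was lost with DESeq2 (adjusted p = 0.129) and without any 1 of the naive or rejecting kidneys (-2.23 to -1.74). That in tolerized kidneys was lost without naive kidney 1 (-1.80). Akap7, an anchor of protein kinase A, had 46.2 and 49.8, 30.3 and 19.5, and 32.1 and 23.9 CPM. It fell by 0.80 in tolerized kidneys (SE 0.257, adjusted p = 0.0476) and passed in 6 of 14 alternatives. The call was lost without naive kidney 1 (-0.85), naive kidney 2 (-0.74) or tolerized kidney 2 (-0.57), and with DESeq2 (adjusted p = 0.297).

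Of 8 other aquaporins, 2 were tested in principal-like cells. Aqp5 had 17.5 and 11.1 CPM (naive), 0 and 5.99 CPM (rejecting) and 5.14 and 1.47 CPM (tolerized), from at most 19 UMIs, and was lower in tolerized than in naive kidneys by -2.26 (SE 0.640, adjusted p = 0.0268). That call was lost with DESeq2 (adjusted p = 0.143) and without naive kidney 1 (-1.87), naive kidney 2 (-2.52) or tolerized kidney 2 (-1.45). Aqp6, an aquaporin of acid-secreting intercalated cells, had 6.46 and 4.61 CPM (naive), 144 and 109 CPM (rejecting) and 1.29 and 21.0 CPM (tolerized). The log2 fold change was -3.27 between tolerized and rejecting (SE 0.498, adjusted p = 0.0360) and 4.48 between rejecting and naive kidneys (SE 0.639, adjusted p = 0.000260). The former was lost with DESeq2 (adjusted p = 0.849) and without any 1 of the naive or rejecting kidneys (adjusted p from 0.0774 to 0.357). Few cells carried these UMIs. In rejecting kidney 1, 4 cells held 62 UMIs, with 37 in 1 of them, and in rejecting kidney 2, 3 cells held 73 UMIs, with 71 in 1 of them.

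**Figure D5:**
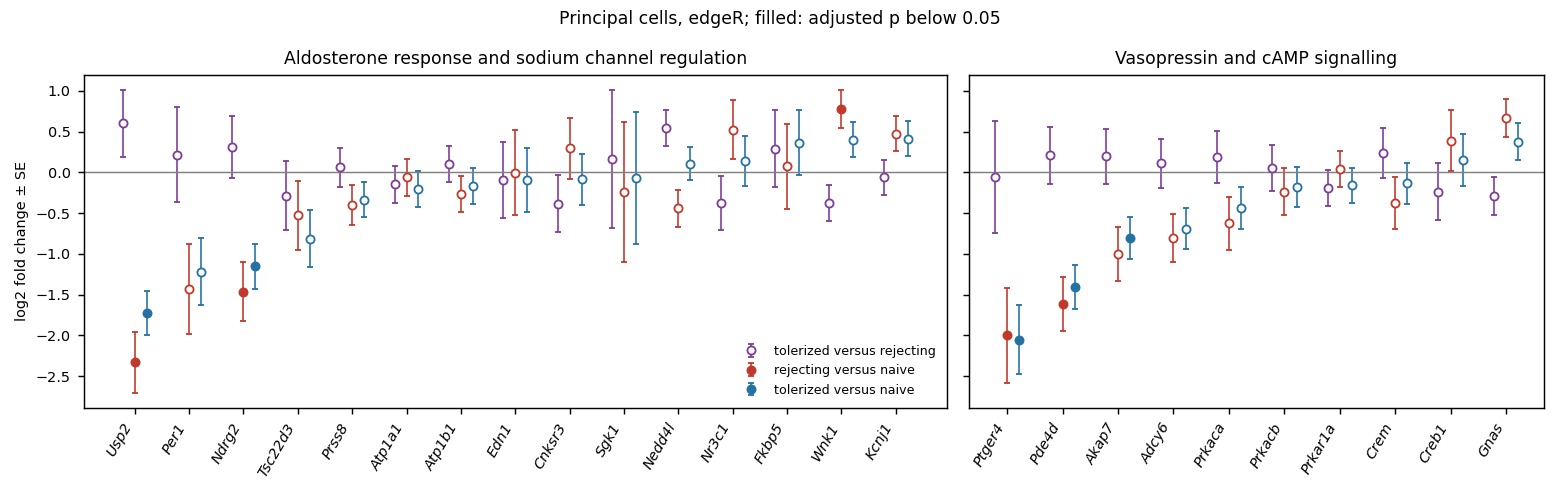
Log2 fold change of the tested genes of the aldosterone and vasopressin lists in principal cells, with bars of 1 SE, for the 3 comparisons. Filled points have an adjusted p below 0.05 in edgeR. Usp2 stands at -2.33 and -1.73 and Pde4d at -1.61 and -1.41 against naive kidneys. Every change between tolerized and rejecting kidneys has an open point.

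The same lists gave no call between tolerized and rejecting kidneys in proximal tubule-like, connecting tubule-like, distal convoluted tubule-like or thick ascending limb-like cells (0 genes with edgeR in each). Against naive, proximal tubule-like cells had 4 of 17 aldosterone genes higher and 5 lower in rejecting kidneys. In tolerized kidneys 2 were higher and 4 lower. Of 10 vasopressin genes, 1 was higher and 1 lower in rejecting, and 1 lower in tolerized kidneys. Of 4 other aquaporins, 2 and 1 were lower, where 41.9% and 32.3% of all genes passed. In thick ascending limb-like cells 1 of 15 aldosterone and 2 of 10 vasopressin genes were lower in rejecting kidneys. In tolerized kidneys 1 vasopressin gene was lower, where 15.8% and 12.2% of all genes passed. Distal convoluted tubule-like cells had 3 of 15 aldosterone genes lower and 2 of 10 vasopressin genes higher in rejecting kidneys. In tolerized kidneys 1 aldosterone gene was lower, and 2 vasopressin genes were higher and 1 lower. Of all genes in this class, 21.1% and 15.4% passed in either direction. Ptger3, a prostaglandin E2 receptor that lowers cyclic AMP, had 9.10 and 6.33 CPM (naive), 44.2 and 52.9 CPM (rejecting) and 86.1 and 35.8 CPM (tolerized) in that class. It was higher by 2.59 in rejecting (SE 0.467, adjusted p = 0.00197) and by 2.90 in tolerized kidneys (SE 0.434, adjusted p = 0.000740), although not in rejecting kidneys when cells had at most 20% mitochondrial UMIs (2.07, adjusted p = 0.0742). Tsc22d3 fell by 1.56 in rejecting kidneys in the same class (SE 0.326, adjusted p = 0.00479), from 23.2 and 23.7 to 7.76 and 8.08 CPM, and with the same limit the change was -1.70 (adjusted p = 0.119). Ptger3 was also among the leading genes of 3 thick ascending limb-like clusters, and macrophage markers summed to 16.1 to 17.1 CPM in naive, 182 to 342 in rejecting and 46.5 to 169 in tolerized distal convoluted tubule-like cells. Their part was not tested.

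Principal-like cells made up 15.6% and 19.9% of the named distal nephron cells of naive kidneys, 10.9% and 9.87% of those of rejecting kidneys, and 12.99% and 18.4% of those of tolerized kidneys. With the main choice of cells and clusters, though not with every alternative, both rejecting kidneys were below all others. The difference was 5.31 percentage points between tolerized and rejecting and -7.35 between rejecting and naive kidneys (2-sided exact permutation test, p = 0.3333 for both, the smallest p that 2 kidneys against 2 allow), and -2.05 between tolerized and naive kidneys (exact p = 0.667). Left unnamed were 676 of 1006 cells at this level in rejecting kidney 1, mostly in a cluster with macrophage and T cell markers, and 18.5% to 33.9% in the other kidneys.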

How the data were processed

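Single cells of 2 naive, 2 rejecting and 2 tolerized kidneys were sequenced on the droplet platform of 10x Genomics. The authors deposited 1 matrix of raw UMI counts per kidney, made with Cell Ranger on the mm10 genome per the labels (version 3.0.1 in the headers of the transplanted kidneys). Each kidney held 34874702 to 96803926 UMIs, and intervals cover counting error only. The 10 genes, the lists and the tests were chosen with earlier results of these data known.

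Barcodes were kept from 500 UMIs and 250 genes upwards if mitochondrial UMIs were no more than 50%, and the highest doublet scores were removed per kidney (0.8% per 1000 barcodes). Cells were clustered with scanpy 1.11.5 and leidenalg 0.10.2 (2500 variable genes, 40 components, 20 neighbors, resolution 1.5), and distal cells were clustered again. Clusters were named by at least 3 markers, each in at least 10% of cells. UMIs were summed per kidney and class with at least 10 cells, filtered with filterByExpr, scaled by TMM and tested with edgeR 4.0.16 at a false discovery rate of 0.05 (Benjamini-Hochberg over all genes of a class). Differences between classes used limma 3.58.1 (prior count 2), with R 4.3.3 and Python 3.11.15. These fits were tested on simulated data with known changes.

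All 10 genes were named in their segments. In principal-like cells at most the 3 largest changes past the threshold were named per list and comparison, with Sgk1, Tsc22d3 and Nedd4l always given. In distal convoluted tubule-like cells only Ptger3 and Tsc22d3 were named from the lists, and in the other classes calls were only counted. Kidneys of the same number did not deviate together across groups (correlations from -0.0872 to 0.0757), so the main fit had no block. The study names 2 experiments, and the labels do not say whether the replicate numbers follow them. Alternatives were DESeq2 1.42.0, its size factors, no filter, a replicate block, doublets kept, a minimum of 1000 UMIs, a mitochondrial limit of 20%, resolution 0.8, transplanted kidneys only, thinning to 2000 UMIs and leaving out each kidney. The study sequenced 2 kidneys per group, and how many mice gave them is not stated in the sources used here, so p-values measure only the spread between these kidneys.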

Additional observations from a re-analysis of the deposited data

How the results depend on the processing

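Depth and numbers of cells set the limits: rejecting kidneys held 34 and 44 principal-like and 10 and 27 connecting tubule-like cells, and with 2 kidneys per group a fit without 1 of them assumes that the lone kidney varies like the others. Connecting tubule-like cells were too few with at most 20% mitochondrial UMIs (4 cells in 1 kidney) and at resolution 0.8 (9), so those fits were not run. Over all alternatives, 559 of the values of single member genes kept their direction and side of the threshold, including values past it in neither fit. Of the others, 13 lost and 12 gained a call, and 37 changed sign. Shares of principal-like cells with a UMI were less stable. From 1000 to 2000 UMIs, 15 differences between groups moved by more than the larger standard deviation within a group, and 12 did not. Between tolerized and rejecting kidneys, Scnn1b went from -9.13 to 2.44 points and Scnn1g from 0.43 to -11.5 points. With edgeR, the number of calls between tolerized and rejecting kidneys was 1 at resolution 0.8, for a pair whose fold change is not given. Between rejecting and naive kidneys it was 5 when connecting tubule-like cells were counted too, an alternative chosen after seeing the data, and 0 to 3 with each kidney left out, with 0 calls without naive kidney 2 and 1 without naive kidney 1. Between tolerized and naive kidneys it was 4 without the filter on low counts, 4 with doublets kept and 0 to 3 with each kidney left out, with 0 calls without naive kidney 2 and 1 without naive kidney 1 or tolerized kidney 1. The replicate block gave 0, 3 and 2 calls, the same numbers as without it, and among the pathway genes Akap7 lost its call with it (adjusted p = 0.0506). Scnn1g lost its call between rejecting and naive kidneys (-0.73, adjusted p = 0.0947) when principal-like and connecting tubule-like cells were summed, also chosen after seeing the data. Scnn1a passed between tolerized and naive kidneys with DESeq2 size factors (adjusted p = 0.0497), no filter (0.0321) and doublets kept (0.0400), and Aqp3 with no filter (also between rejecting and naive kidneys), doublets kept (0.0377) and summed classes (0.0248). With at most 20% mitochondrial UMIs, the share of principal-like cells differed by 11.2 points between tolerized and rejecting, -31.9 between rejecting and naive, and -20.7 between tolerized and naive kidneys. The cause of these changes was not tested.

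Sign changes fell on log2 fold changes that were not past the threshold. Between tolerized and rejecting kidneys, Aqp4 in principal-like cells was -0.094 with doublets kept and -0.24 with summed classes. Between tolerized and naive kidneys, Aqp2 in principal-like cells was 0.016 without the filter, 0.0050 with the replicate block and 0.086 at resolution 0.8, and Nr3c2 was 0.046 with summed classes. Scnn1a in distal convoluted tubule-like cells was 0.68 with at most 20% mitochondrial UMIs and 0.0032 at resolution 0.8 between rejecting and naive, and 0.37 with that limit between tolerized and naive kidneys. With each kidney left out, changes between tolerized and rejecting kidneys ran from -0.60 to 0.14 for Aqp1 in proximal tubule-like cells, and in principal-like cells from -0.091 to 0.64 for Aqp2, -0.95 to 1.151 for Aqp3, -0.014 to 0.32 for Scnn1a, -0.39 to 0.25 for Scnn1g, -0.41 to 0.076 for Avpr2, -0.14 to 0.51 for Nr3c2, -2.04 to 2.37 for Sgk1 and -1.09 to 0.18 for Tsc22d3. They ran from -0.0025 to 0.34 for Scnn1a, -0.75 to 0.36 for Scnn1g and -0.52 to 0.62 for Nr3c2 in connecting tubule-like cells, and from -0.42 to 0.36 for Scnn1a and -0.43 to 0.13 for Nr3c2 in distal convoluted tubule-like cells. Between rejecting and naive kidneys they ran from -0.65 to 0.069 for Aqp2, -0.080 to 0.24 for Avpr2 and -2.43 to 1.57 for Sgk1 in principal-like cells and from -0.55 to 0.23 for Scnn1a in distal convoluted tubule-like cells. Between tolerized and naive kidneys they ran from -0.19 to 0.44 for Aqp1 in proximal tubule-like cells, and in principal-like cells from -0.34 to 0.26 for Aqp2, -0.34 to 0.16 for Avpr2, -0.41 to 0.061 for Nr3c2, -2.27 to 1.74 for Sgk1 and -0.020 to 0.25 for Nedd4l.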

Other observations

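Sgk1 separated the kidneys by their replicate number rather than by group in principal-like cells, with 57.3, 37.3 and 41.8 CPM in the first and 347, 289 and 335.5 CPM in the second naive, rejecting and tolerized kidney. In intercalated-like cells Sgk1 had 45.2 and 131, 12.1 and 60.9, and 21.4 and 119 CPM. The second kidney was thus the higher one in all 3 groups in both classes. In connecting tubule-like cells it had 110 and 153 CPM (rejecting) and 39.0 and 285 CPM (tolerized). In endothelium-like cells the first kidney was the higher one, at 1380 and 1053, 953 and 558, and 1020 and 976 CPM. The study names 2 experiments, but the labels do not say whether the replicate numbers follow them, and the pattern was noticed after the values were seen.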
